A study of Mus musculus with 27 samples.

Results

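The region described here is a stretch of mouse chromosome 1 of about 26 Mb that holds Gli2 and its flanks. It was chosen by position, from earlier segment values of the same 6 arrays, because 1 tumour that had become resistant to a Smo antagonist carried a high gain there. Its members are the probed sites of the DNA arrays from 104036105 to 129999344 in the mm8 build named in the scanner files. Of 1678 spots with 1660 probe names in these limits, 1658 probes had a value on all 6 arrays, out of 233261 on the whole array, and 14526 more lie elsewhere on chromosome 1. The copy-number levels below therefore describe the values by which the region was selected, and no test was made on them.

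The tumours were medulloblastomas of Ptch+/-p53-/- mice, grafted into nude mice that received NVP-LDE225, an antagonist of Smo, or vehicle. Genotype was the same in all 6 DNA samples, so the controls carry the Ptch and p53 alleles too. There were 3 resistant tumours, 1 each at 40, 80 and 160 mg/kg/day given in split daily doses until day 26, and 3 vehicle tumours of 26 days, labelled sensitive. Each tumour's DNA carried Cy5 and was hybridised against wild-type mouse liver DNA in Cy3, on an Agilent comparative genomic hybridisation array of 60-base probes. The labels of the 160 mg/kg/day tumour disagree: status, treatment and dose describe a resistant tumour, but its title and source name contain the word vehicle. Each resistant tumour is 1 sample at its dose, so values are given tumour by tumour, and none rests on that tumour alone unless it is named. Whether the grafts came from 1 donor tumour or several is not given in the sources used here, and the share of cells with a gain cannot be told apart from the copies per cell.

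Gli2 is a zinc finger transcription factor and the main activator of Hedgehog target genes. Hedgehog ligand relieves the inhibition of Smo by Ptch1, and Smo in turn lets Gli2 act in the nucleus, downstream of the step that a Smo antagonist blocks. Granule neuron precursors of the cerebellum divide in response to this pathway, and loss of Ptch1 function in them gives rise to medulloblastoma in mice. Its neighbours have other roles. Tfcp2l1 encodes a transcription factor of pluripotent cells and kidney epithelium, and Inhbb encodes the beta-B subunit of activin and inhibin in the TGF-beta family.

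In the RefSeq gene table of assembly GRCm38.p6, used for names and order, Gli2 lies directly between Tfcp2l1 and Inhbb. The promoters of these genes are shown because they are the 3 neighbouring genes at the centre of the gain. Each runs from 250 bases before to 50 bases after the gene's start, 5′ to 3′ on the gene's own strand, with CpG dinucleotides in capitals. They are from RefSeq GRCm38.p6, a later build than the mm8 of the arrays, at chr1:118627695-118627994 on the plus strand for Tfcp2l1, chr1:119053570-119053869 on the minus strand for Gli2, and chr1:119422199-119422498 on the minus strand for Inhbb.
Tfcp2l1: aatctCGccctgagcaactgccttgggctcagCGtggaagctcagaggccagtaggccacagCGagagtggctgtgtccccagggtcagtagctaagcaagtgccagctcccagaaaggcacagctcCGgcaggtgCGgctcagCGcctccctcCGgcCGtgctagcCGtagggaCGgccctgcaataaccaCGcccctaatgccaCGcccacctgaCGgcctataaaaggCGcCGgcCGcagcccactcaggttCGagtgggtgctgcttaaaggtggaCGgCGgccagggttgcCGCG
Gli2: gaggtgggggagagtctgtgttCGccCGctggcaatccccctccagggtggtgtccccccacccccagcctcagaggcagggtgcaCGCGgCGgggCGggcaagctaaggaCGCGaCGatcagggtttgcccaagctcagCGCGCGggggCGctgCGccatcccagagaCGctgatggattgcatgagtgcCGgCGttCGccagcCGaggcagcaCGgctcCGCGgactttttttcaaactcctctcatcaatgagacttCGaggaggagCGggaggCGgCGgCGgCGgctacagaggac
Inhbb: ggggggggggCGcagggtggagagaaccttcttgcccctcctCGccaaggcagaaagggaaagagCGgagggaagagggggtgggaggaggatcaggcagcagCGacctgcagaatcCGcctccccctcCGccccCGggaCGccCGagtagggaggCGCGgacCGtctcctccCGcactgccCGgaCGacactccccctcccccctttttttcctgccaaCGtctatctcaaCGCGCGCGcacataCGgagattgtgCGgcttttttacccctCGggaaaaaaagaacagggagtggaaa
The Gli2 promoter held 28 CpG dinucleotides, that of Inhbb 23 and that of Tfcp2l1 21, against a median of 7 over all 32851 promoters of the table. None of the 3 windows held GACCACCCA, a sequence bound by GLI proteins, on either strand, and 0.253% of all promoters did. The same gene table places mmu-miR-6346 inside Gli2, and the precursor of mmu-miR-128-1-5p and mmu-miR-128-3p inside R3hdm1, the last gene of the region. miR-128 is abundant in brain. The mature sequences are given because the gain and its distal flank carry these loci too, with the seed, bases 2 to 8, in capitals.
mmu-miR-6346: uAGCAGGUgucugcaaugccaa
mmu-miR-128-1-5p: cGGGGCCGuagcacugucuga
mmu-miR-128-3p: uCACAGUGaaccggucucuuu

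All values are log2 of tumour over liver signal, centred on the median of the autosomes of each array. Thus 0 is that median and need not be the commonest level of the genome. The spread between neighbouring probes was 0.32 (SD) at 40, 0.28 at 80 and 0.46 at 160 mg/kg/day, against 0.13, 0.20 and 0.18 in vehicle tumours 1, 2 and 3. Smaller steps could therefore be seen in vehicle tumours. No spot of the region was saturated or dim, and 1 to 3 per array were outliers. Each array was cut into segments of constant level, and a segment with a mean of at least 0.3 over at least 5 probes was called a gain.

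The tumours at 80 and 160 mg/kg/day carried gains across most of the region, with different shapes, while neither the tumour at 40 mg/kg/day nor any vehicle tumour had a called gain. The mean over all 1658 probes was -0.02 at 40, 0.73 at 80 and 0.62 at 160 mg/kg/day, against -0.10, -0.09 and -0.10 in the 3 vehicle tumours. Called gains covered 0% of the region's probes at 40 mg/kg/day, 68.0% at 80 and 86.3% at 160, beside 7.13%, 11.9% and 11.5% of all autosomal probes in the same tumours. With normexp background correction in place of the processed signals, the share at 80 mg/kg/day was 13.2%, 124 segments were found there, and the run of segments at 1 or more around the middle of Gli2 began at 120.734 Mb, inside the gene and past its first 4 probes, and ended at 121.243 Mb. In vehicle tumours 1, 2 and 3 called gains covered 0%, beside 6.99%, 6.94% and 7.00% of all autosomal probes. Of the 26 windows of 1 Mb, 0, 21 and 23 had a mean of 0.3 or more at 40, 80 and 160 mg/kg/day, against 0 in each vehicle tumour. Over all 2396 autosomal windows the shares were 7.93%, 11.4% and 11.6% in the resistant tumours, against 6.55%, 6.72% and 6.68% in the vehicle tumours. All 5 autosomal windows with a mean of 1 or more at 80 mg/kg/day, and all 3 at 160, lay in this region. The 40 mg/kg/day tumour had 4 such windows, 0 of them here, and its highest window, at 2.41, was on chromosome 16. Outside it, the median of chromosome 1 was -0.04, -0.08 and 0.02 in the resistant tumours and -0.04 in each vehicle tumour.

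**Figure D1:**
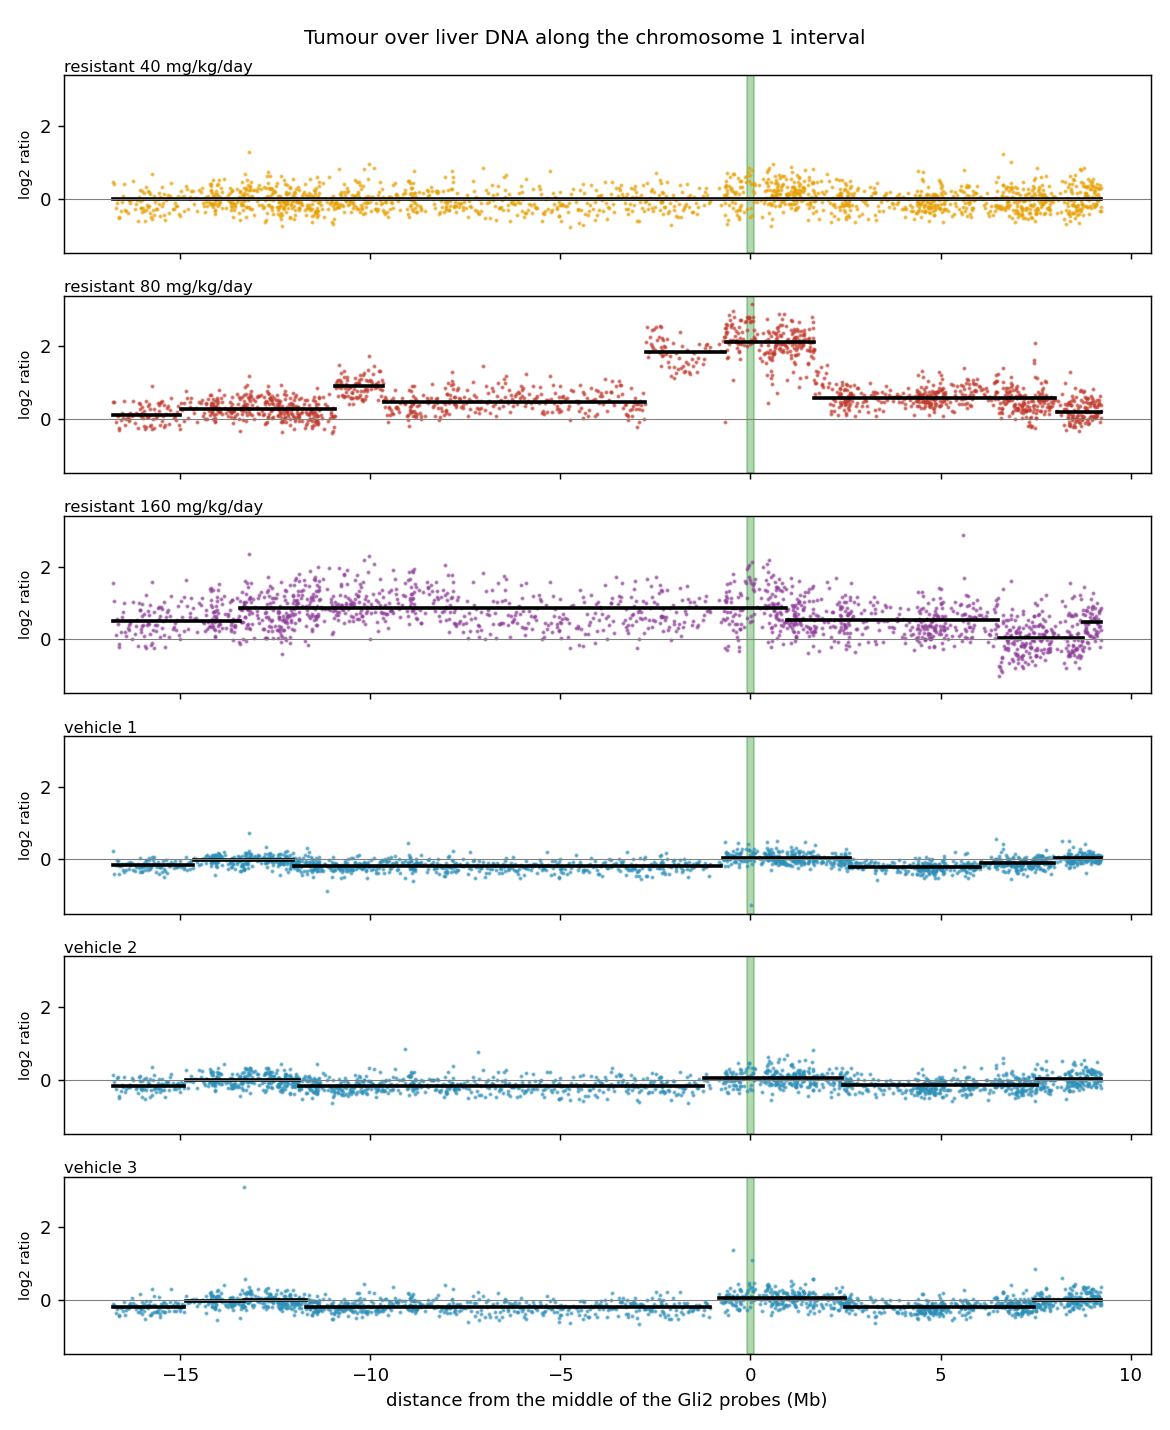
Log2 ratio of tumour over liver DNA of each probe (points) and the mean of each segment of 5 or more probes (black lines) against the distance from the middle of the Gli2 probes in Mb, for 3 resistant tumours above 3 vehicle tumours; the green band spans the Gli2 probes. The 80 mg/kg/day tumour has a block near 2 around Gli2, the 160 mg/kg/day tumour a broad step at 0.85, and the other tumours stay near 0.

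The highest level belonged to the 80 mg/kg/day tumour, in a block of 4.41 Mb around Gli2. It ran from 118050387 to 122456234 over 287 probes, as a segment at 1.83 (71 probes) followed by one at 2.13 (216 probes). The vehicle mean over the same probes was -0.17 in the first and 0.06 in the second. Taking the vehicle mean off each probe gave segments at 2.27, 1.89, 2.28, 1.73 and 2.05, and 1 probe at 0.17. No single rise along the block was then seen. Over the whole block the mean was 0.10 at 40, 2.05 at 80 and 0.80 at 160 mg/kg/day, against -0.01, 0.00 and 0.00 in the vehicle tumours. At 80 mg/kg/day this was a tumour-to-liver ratio of 4.15, or 4.15 times the vehicle mean. Of the block's probes 282 were above 1 in this tumour, a level that 0.922% of autosomal probes passed. All 287 lay above the highest vehicle tumour, where 33.3% of autosomal probes did so.

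The proximal edge of this block was a single large step, while the distal edge had a lower shoulder beyond it. At the proximal edge the last 10 probes before it averaged 0.26 in the 80 mg/kg/day tumour, against -0.25 for the vehicle mean. The first 10 inside averaged 2.14, against -0.20. The step falls in a gap of 43.4 kb inside Cntnap5a, a contactin-associated protein of the neurexin family. In the 80 mg/kg/day tumour the 24 probes of this gene before the gap averaged 0.29 and the 15 after it 2.14, so part of the gene lay outside the block. At the distal edge the last 10 probes averaged 2.16 and the next 10 averaged 1.07, across a gap of 8.76 kb. This gap falls within the span of the 6 probes of a cDNA without a symbol. The nearest genes with a symbol were En1, 20.7 kb before it, and Insig2, 668 kb beyond it. En1 encodes a homeobox factor of the midbrain and cerebellum, and Insig2 restrains sterol synthesis. En1 was inside, with a mean of 1.93 at 80 mg/kg/day, and Insig2 outside, with 0.65. The distal edge depended on the penalty per breakpoint: the block ended at 122.841 Mb with 2 times the usual penalty in place of 3, and also with the usual penalty, an alternative chosen after seeing the data. At the usual penalty the first 376 kb beyond the edge formed a step of its own at 1.07 (17 probes), after which the level was 0.60.

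Inside the block 18 genes with a symbol lay whole, besides part of Cntnap5a. Their means ranged from 0.44 to 2.55 at 80 mg/kg/day with a median of 2.03. The same genes ranged from -0.16 to 0.35 at 40 mg/kg/day and from -0.07 to 1.38 at 160, with medians of 0.11 and 0.65. In the vehicle tumours their medians were 0.03, 0.00 and 0.00. Among genes with at least 2 probes, those with the highest means at 80 mg/kg/day were Gli2 at 2.55, Clasp1 at 2.33, Sctr at 2.22, Ptpn4 at 2.17 and Tfcp2l1 at 2.13. Clasp1 encodes a protein that stabilises microtubule ends, Sctr the secretin receptor and Ptpn4 a tyrosine phosphatase.

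**Figure D2:**
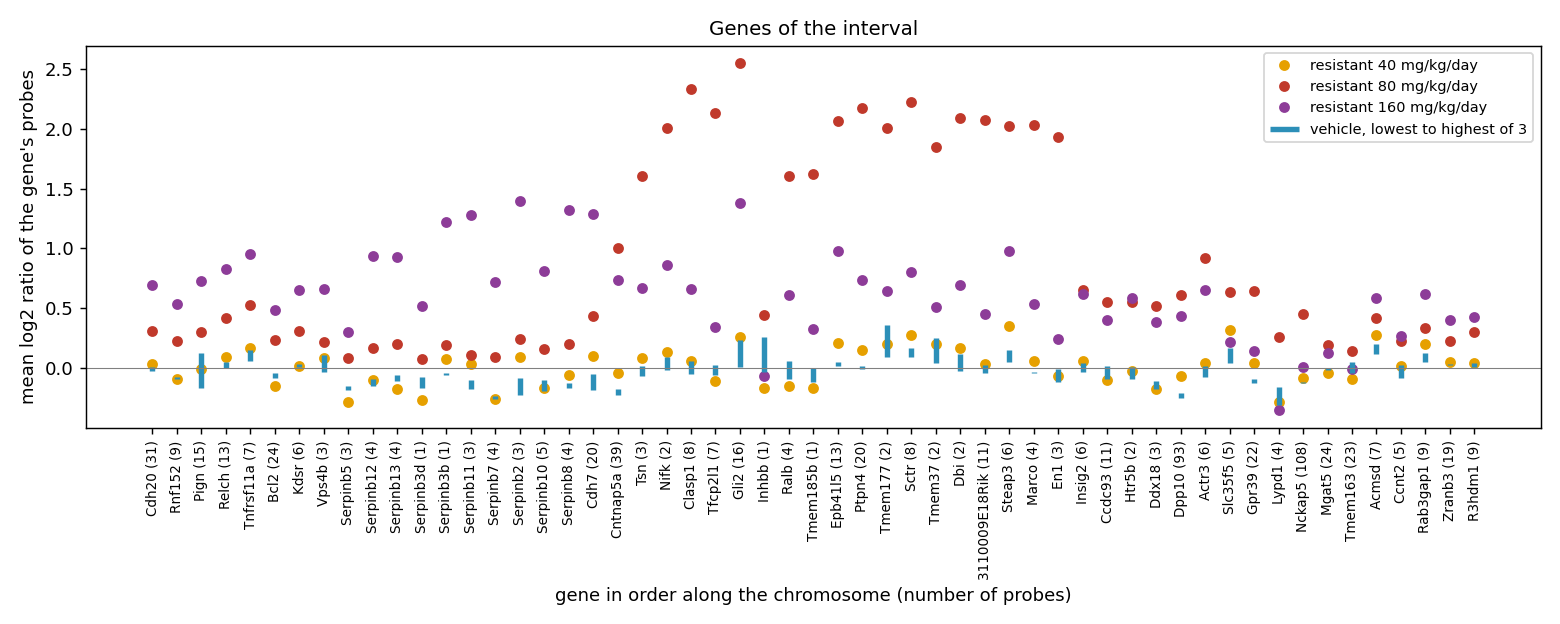
Mean log2 ratio of the probes of each of 55 genes in their order along the chromosome, with the number of probes in brackets, for the resistant tumours (points) and the range of the 3 vehicle tumours (bars). The genes from Tsn to En1 stand between 1.60 and 2.55 at 80 mg/kg/day except Inhbb, whose only probe is at 0.44, and the serpin genes and Cdh7 stand higher at 160 than at 80 mg/kg/day.

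Gli2 itself had 16 probes, from 120682858 to 120877254, under the name of a cDNA that the files describe as GLI2. A further probe at 120662655 belongs to another cDNA, described only as similar to human GLI2, and was not counted with them. It read 0.45, 2.69 and 1.55 at 40, 80 and 160 mg/kg/day, against 0.29, 0.29 and 0.17 in vehicle tumours, and with it the 17 probes exceeded the vehicle mean by 0.15, 2.43 and 1.27. The mean of the 16 was 0.26 (SD over probes 0.45) at 40, 2.55 (0.34) at 80 and 1.38 (0.56) at 160 mg/kg/day, against 0.01 (0.37), 0.10 (0.25) and 0.23 (0.32) in vehicle tumours 1, 2 and 3. The vehicle mean was 0.12 ± 0.11 (SD, n = 3). At 80 mg/kg/day the lowest Gli2 probe was at 2.02, the median at 2.68 and the highest at 3.18, the highest value of the region in that tumour. At 160 mg/kg/day they were 0.46, 1.52 and 2.13, and at 40 mg/kg/day -0.50, 0.40 and 0.85. The highest Gli2 probes of the vehicle tumours were at 0.42, 0.47 and 1.09. All 16 probes at 80 mg/kg/day and 15 of 16 at 160 lay above every vehicle tumour, and 9 of 16 did at 40. Over all autosomal probes the share above every vehicle tumour was 33.3% at 80, 42.0% at 160 and 35.7% at 40 mg/kg/day, so the count at 40 mg/kg/day is read against a high background. The same 4 Gli2 probes were the lowest in each resistant tumour, between -0.50 and -0.26 at 40, 2.02 and 2.17 at 80, and 0.46 and 0.63 at 160 mg/kg/day, so the spread between probes was partly shared by the arrays. Over vehicle tumours the Gli2 ratio was 1.11-fold at 40, 5.39-fold at 80 and 2.40-fold at 160 mg/kg/day. On the log2 scale the excess was 2.43 at 80 and 1.26 at 160 mg/kg/day, and with normexp background correction it was 1.84 and 1.42.

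**Figure D3:**
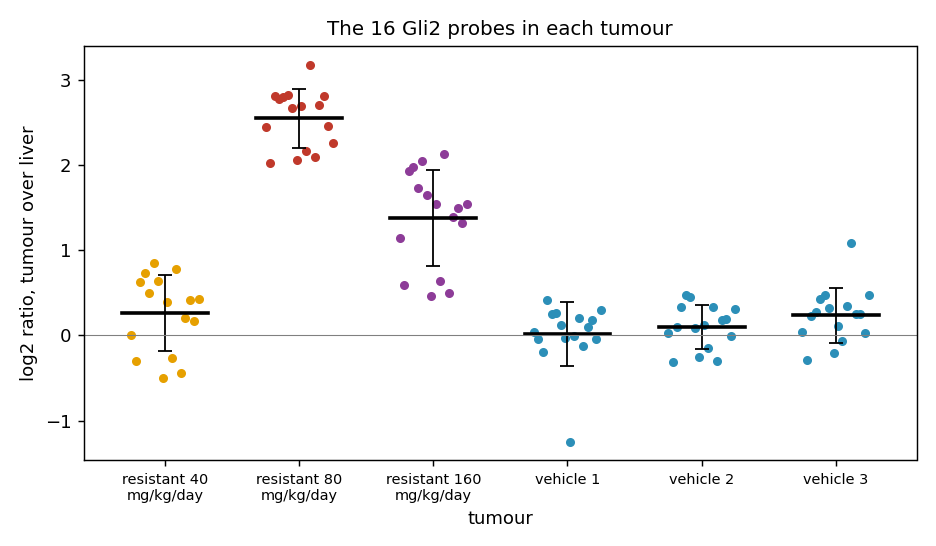
Log2 ratio of tumour over liver DNA of the 16 Gli2 probes (points, in their order along the chromosome) in each resistant and each vehicle tumour, with the mean over probes (thick line) and its SD (whisker). All probes are above 2 at 80 mg/kg/day, between 0.46 and 2.13 at 160, and between -0.50 and 0.85 at 40, where they overlap the vehicle tumours.

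The levels on either side of Gli2 were uneven. From Tfcp2l1 to Gli2, 8 probes averaged 0.16, 2.36 and 0.88 at 40, 80 and 160 mg/kg/day, against a vehicle mean of 0.06 ± 0.03 (SD, n = 3). Without the probe of the cDNA similar to GLI2, which is the last of the 8, the values were 0.12, 2.31 and 0.79, against 0.04 ± 0.03. From Gli2 to Inhbb, 17 probes averaged 0.18, 2.00 and 1.19, against 0.10 ± 0.02. Over all 41 probes between the neighbours the tumours exceeded the vehicle mean by 0.11, 2.18 and 1.10. Tfcp2l1 had 7 probes with means of -0.11, 2.13 and 0.35, against 0.02, -0.06 and -0.05 in the vehicle tumours. It was thus as high as the rest of the block at 80 mg/kg/day but lower than the probes beside it at 160. At 160 mg/kg/day the SD over probes was 0.58 for Tfcp2l1 and 0.53 for the 8 probes from Tfcp2l1 to Gli2. That difference is about as large as the spread between probes, so it is not read as a step. Inhbb had 1 probe, which read -0.16, 0.44 and -0.07, against 0.26, -0.03 and 0.05. This probe stood apart from the probes on both sides at 80 and 160 mg/kg/day, so it gives no sound level for Inhbb.

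Only 5 of the block's 287 probes were below 1 at 80 mg/kg/day, and each stood alone. One lay in Tsn, which encodes the nucleic acid binding protein translin, and read -0.08 at 80 mg/kg/day, while the other 2 probes of Tsn read 2.50 and 2.40. The Inhbb probe is another, and 1 each lay in Ptpn4 at 0.72, in Steap3, an iron reductase gene, at 0.89, and in an unnamed cDNA at 0.96. At 160 mg/kg/day 4 of these 5 probes were also below the block's mean of 0.80 by 0.6 or more, at -0.23 in Tsn, -0.07 in Inhbb, 0.02 in Ptpn4 and 0.19 in the cDNA, and the Steap3 probe read 0.55. The low Tsn probe is the last of the segment at 1.83.

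The 160 mg/kg/day tumour had a wider and lower gain, with Gli2 in its distal part. A segment at 0.85 ran from 107368793 to 121727135 over 14.4 Mb and 811 probes, where the vehicle mean was -0.11. It began inside Pign, a gene of glycosylphosphatidylinositol anchor synthesis, after the first of the gene's 15 probes, and ended between Ptpn4 and Tmem177. It shared 3.68 Mb and 205 probes with the block of the 80 mg/kg/day tumour, over which the means were 0.08 at 40, 2.05 at 80 and 0.87 at 160 mg/kg/day, against -0.02 in the vehicle mean. Gains of about 0.5 lay on both sides: one of 16.6 Mb at 0.50 that began outside the region, at 90728348, and one at 0.52 from 121736166 to 127288019. The steps at both ends were small, 0.35 and -0.33, and below the spread between neighbouring probes of this array.

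With the penalty reduced to its usual value, an alternative chosen after seeing the data, 2 stretches of the 160 mg/kg/day tumour stood above the rest. One ran from 120643507 to 121288712 at 1.26 (42 probes), began just before Gli2 and ended just after Inhbb. The other ran from 108766004 to 112975058 at 1.04 (281 probes) and held 9 serpin genes, from Serpinb12 to Serpinb8, and Cdh7. The vehicle mean over the same probes was 0.12 in the first and -0.16 in the second, so relative to vehicle tumours the order was 1.14 for the first and 1.19 for the second. When the vehicle mean was taken off each probe before segmentation, the stretch at Gli2 no longer formed a segment of its own at either penalty: it lay in one from 112983078 to 121635042 at 0.88 with the main penalty. The stretch with Cdh7 remained, from 108766004 to 112975058 at 1.19. The highest 1 Mb window of this tumour was at 1.09, starting at 111 Mb, and the window that holds Gli2 was at 0.89. In the 80 mg/kg/day tumour the highest window was the one with Gli2, at 2.30.

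Genes in the proximal flank differed between these tumours in the opposite sense to Gli2. Serpinb2, a plasminogen activator inhibitor, averaged 0.09 at 40, 0.25 at 80 and 1.39 at 160 mg/kg/day (3 probes), against -0.23, -0.08 and -0.15 in vehicle tumours. Serpinb8 read -0.06, 0.20 and 1.32 (4 probes), against -0.16, -0.13 and -0.16. Serpinb11 read 0.03, 0.11 and 1.28 (3 probes), against -0.18, -0.09 and -0.14. Together with Gli2 and Cdh7 these had the highest means at 160 mg/kg/day. Cdh7, a classical type II cadherin, read 0.10, 0.44 and 1.28 (20 probes), against -0.18, -0.05 and -0.08. Thus the 160 mg/kg/day tumour was the highest of the 6 at each of these genes, and the 80 mg/kg/day tumour the second.

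Bcl2, an inhibitor of apoptosis, lies in the same flank and averaged -0.15 at 40, 0.23 at 80 and 0.49 at 160 mg/kg/day over 24 probes, against -0.04, -0.08 and -0.08 in vehicle tumours. The 40 mg/kg/day value is below all 3 vehicle tumours. Tnfrsf11a, the receptor of the osteoclast factor RANKL, read 0.17, 0.53 and 0.95 (7 probes), against 0.06, 0.10 and 0.15. Relative to the vehicle mean, Bcl2 stood at 0.30 and 0.56 and Tnfrsf11a at 0.42 and 0.85 at 80 and 160 mg/kg/day.

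Between the serpins and the block, the 80 mg/kg/day tumour showed a further step. From 109874205 to 111137946 it had a segment at 0.90 (89 probes, 1.26 Mb), with segments at 0.28 before and 0.48 after it, where the vehicle mean was -0.19. No gene matched to a symbol lies within that step on the array. The last probe before it is 430 kb beyond Serpinb8, and the first probe after it is 660 kb before Cdh7. Most of its probes belong to a cDNA without a symbol, with 69 probes from 109874205 to 110752597. This cDNA averaged 0.01, 0.88 and 1.05 at 40, 80 and 160 mg/kg/day, against a vehicle mean of -0.20. The 160 mg/kg/day tumour's higher stretch spans the position of this step. The window starting at 110 Mb averaged 0.01 at 40, 0.88 at 80 and 1.04 at 160 mg/kg/day, against -0.20, -0.19 and -0.19 in the vehicle tumours. Its excess over the vehicle mean at 40 mg/kg/day, 0.20, was the highest of the 26 windows in that tumour.

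Beyond the block the tumours separated again. At 80 mg/kg/day the level was 0.59 from 122464994 to 128799659 (468 probes), then 0.20 to the end of the region. At 160 mg/kg/day the gain of 0.52 ended between Actr3, a subunit of the Arp2/3 actin complex, and Slc35f5, a solute carrier gene. A stretch at 0.03 followed, from 127305289 to 129513959 (227 probes), and then one at 0.48 from 129522347 on. Gpr39, a zinc-sensing receptor, lies in the lower stretch, with 0.05, 0.64 and 0.14 at 40, 80 and 160 mg/kg/day (22 probes), against -0.12, -0.09 and -0.10. Nckap5, whose 108 probes are the most of any gene here, read -0.08, 0.46 and 0.01, against -0.11, -0.12 and -0.12. The level rises again between Tmem163, a zinc transporter gene, and Acmsd, an enzyme of tryptophan breakdown. R3hdm1, the host gene of miR-128, read 0.04, 0.30 and 0.43 (9 probes), against 0.01, 0.01 and 0.04.

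Short features appeared at the usual penalty in both gained tumours. At 160 mg/kg/day 8 probes from 127305289 to 127402258 averaged -0.75, between -1.03 and -0.50, the lowest stretch of the region in that tumour. The same 8 probes averaged 0.23 at 80 mg/kg/day, where the 10 probes on each side averaged 0.79. They averaged -0.13 at 40 mg/kg/day, against -0.03, -0.10 and -0.16 in vehicle tumours. With the vehicle mean taken off, the usual penalty gave both gained tumours a segment with exactly these borders, at 0.33 in the 80 and -0.65 in the 160 mg/kg/day tumour. These probes end inside Slc35f5. In the other direction, 4 probes inside Nckap5 from 128235401 to 128260372 averaged 1.60 at 80 mg/kg/day, where 10 probes on each side averaged 0.31. They averaged 0.27 at 40 and 0.49 at 160 mg/kg/day, against -0.03, 0.00 and 0.24 in vehicle tumours. These features rest on few probes and were picked for their values.

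The vehicle tumours had small steps of their own, which recurred in all 3. Segments at -0.02 in vehicle tumour 1, at -0.01 in vehicle tumour 2, and at -0.04 and -0.01 in vehicle tumour 3 covered about 106 to 109 Mb. In vehicle tumour 3 these were parted by a single probe at 3.11. Segments at 0.03, 0.04 and 0.04 covered the stretch from about 120 to 123 Mb that includes Gli2. The long stretch between them was at -0.18, -0.17 and -0.19. Over the 26 windows the vehicle tumours correlated with each other with Pearson's r of 0.98 in each pair, and all arrays share the probes and the kind of liver reference. The 40 mg/kg/day tumour correlated with the vehicle mean at 0.83, the tumour at 80 at 0.34 and that at 160 at -0.01. Spearman's rho was 0.78, -0.09 and 0.16, so the order of the tumours at 80 and 160 mg/kg/day depended on the measure. These are descriptions over windows of 1 chromosome and have no p-value.

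In the 40 mg/kg/day tumour the main penalty gave chromosome 1 as 1 segment at -0.02. The usual penalty put a step of 0.16 from 120132243 to 122430160 (210 probes), where the vehicle mean over the same probes was 0.06. With the vehicle mean taken off each probe, at the usual penalty, no border was left near Gli2, and a stretch of 1041 probes from 109435668 to 127803695 averaged 0.11. The excess of this tumour at Gli2 was 0.15, where the vehicle tumours had an SD of 0.11 (n = 3). It was 0.098 without vehicle tumour 1, 0.14 without vehicle tumour 2, 0.21 without vehicle tumour 3, and 0.26 as a median over probes. Vehicle tumour 1 had a single Gli2 probe at -1.25 and vehicle tumour 3 one at 1.09.

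**Figure D4:**
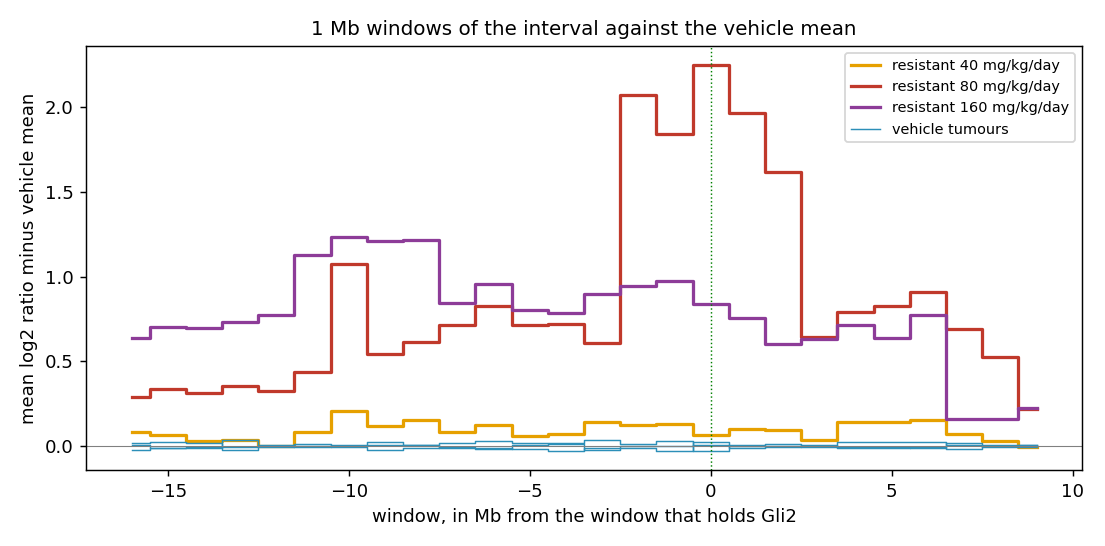
Mean log2 ratio of each 1 Mb window minus the vehicle mean of that window, against the position of the window in Mb from the one that holds Gli2 (dotted line), for 3 resistant tumours and 3 vehicle tumours. The 80 mg/kg/day tumour reaches 2.25 at Gli2 and 1.07 at a window 10 Mb before it, the 160 mg/kg/day tumour lies between 1.13 and 1.23 over 4 windows there and falls to 0.16 near the end, and the 40 mg/kg/day tumour stays at or below 0.20.

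Counted by gene, 0 of 55 genes with a symbol lay at least 0.3 above the vehicle mean at 40 mg/kg/day, 40 at 80 and 47 at 160. Over all 24787 named genes and cDNAs of the autosomes the shares were 5.12%, 5.43% and 13.9%. The median excess over the 55 genes was 0.04, 0.54 and 0.63. Since the region was chosen for these values, the counts describe it and support nothing further. The genes were also sorted into 8 lists by what they encode.

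The list named for Hedgehog and TGF-beta holds Gli2 and Inhbb and also Tfcp2l1 and En1, developmental transcription factors that belong to neither family. Its 4 genes, with Inhbb counted by its single unsound probe, had a median excess of 2.08 at 80 and 0.34 at 160 mg/kg/day, with 4 and 3 genes past 0.3. En1 read -0.06, 1.93 and 0.24 (3 probes), against 0.00, -0.09 and -0.11 in vehicle tumours. Of 10 serpins with probes, 4 passed 0.3 at 80 and 10 at 160 mg/kg/day, with medians of 0.30 and 1.04. Serpinb3a and Serpinb3c had no probe under their names, and nor did Phlpp1, Cdh19, Mcm6, Ubxn4, Dars and Cxcr4. Both cadherins with probes, Cdh7 and Cdh20, passed at 80 and at 160 mg/kg/day, with medians of 0.43 and 1.05. So did Bcl2 and Tnfrsf11a, the members of the apoptosis and AKT list with probes, with medians of 0.36 and 0.70.

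The 7 genes of GTPase, cytoskeleton and trafficking proteins straddle the block, and 5 passed at 80 and 7 at 160 mg/kg/day, with medians of 1.64 and 0.66. Among them Ralb, a Ras-like GTPase, read -0.15, 1.60 and 0.61 (4 probes), against 0.06, -0.09 and -0.08 in vehicle tumours. Epb41l5, an adaptor of epithelial junctions, read 0.21, 2.07 and 0.98 (13 probes), against 0.02, 0.05 and 0.05. Rab3gap1, outside the block, read 0.20, 0.33 and 0.62 (9 probes), against 0.05, 0.13 and 0.12. Of the 4 lipid and acyl-CoA genes 3 passed at 80 and 4 at 160 mg/kg/day, with medians of 1.27 and 0.65. Dbi, the acyl-CoA binding protein, read 0.17, 2.09 and 0.69 (2 probes), against -0.02, 0.12 and 0.00, and Steap3 read 0.35, 2.03 and 0.98 (6 probes), against 0.06, 0.15 and 0.13.

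Of 4 RNA and DNA handling genes with probes, 3 passed at 80 and 3 at 160 mg/kg/day, with medians of 1.14 and 0.61. Ddx18, an RNA helicase gene just beyond the block, read -0.17, 0.52 and 0.39 (3 probes), against -0.11, -0.18 and -0.17. Of 7 genes of membrane and neuronal proteins with probes, 6 passed at 80 and 3 at 160 mg/kg/day, with medians of 0.74 and 0.24. Marco, a scavenger receptor of macrophages, read 0.06, 2.03 and 0.54 (4 probes), against -0.04, -0.03 and -0.03, and Dpp10, a partner of potassium channels, read -0.07, 0.61 and 0.44 (93 probes), against -0.25, -0.20 and -0.24. No gene of any of the 8 lists passed 0.3 at 40 mg/kg/day, where the highest excess was 0.24, at Serpinb2.

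The gain lay in the tumour channel. Over the block's 287 probes the Cy5 signal, each channel set against its own array median, exceeded that of vehicle tumours by 0.10, 2.05 and 0.81 on the log2 scale at 40, 80 and 160 mg/kg/day. The Cy3 signal of liver DNA differed by -0.01 in each of the 3. Among vehicle tumours, each set against the other 2, the Cy5 differences were 0.00, 0.02 and -0.02.

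The positional limits of the region do not mark steps. The 10 probes just inside its proximal limit averaged -0.10, 0.06 and 0.49 at 40, 80 and 160 mg/kg/day, against a vehicle mean of -0.20, and the 10 just outside averaged -0.11, 0.14 and 0.41, against -0.19. At the distal limit the 10 inside averaged 0.05, 0.31 and 0.44, against 0.02, and the 10 outside 0.06, 0.28 and 0.39, against 0.02. In each tumour the levels on the 2 sides of a limit lay within 0.1 of each other, so the 160 mg/kg/day tumour's gain continued past both limits.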

How the data were processed

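DNA of 3 resistant and 3 vehicle tumours was measured on 6 two-colour arrays. Per the file headers, the files are output of Agilent Feature Extraction 9.5.3.1 with mm8 positions. The processed intensity of each channel, background-subtracted and dye-normalized by the program before the authors deposited it, was used as the log2 ratio of Cy5 over Cy3. The authors' deposited table holds log10 ratios and correlated with these ratios at 0.9989 or more in each array, with column medians between -0.0106 and -0.00143. It has the same direction. Outliers and control spots were left out, probes of 1 name averaged, and arrays centred on the autosomal median without loess.

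Segments were fitted by penalised least squares, with 3 times the usual penalty per breakpoint. The method was also run on simulated profiles with independent noise and a single raised stretch each. That run covered neither the short features nor the small steps shared by the vehicle tumours, and its outcome is not given here. Computations used numba 0.67.0 and pandas 2.3.3, with numpy 2.4.6 under Python 3.11.15. The members, lists and tests were chosen with earlier results of these data known. Named genes are Gli2 and its neighbours, genes at segment borders, the 5 with the highest means at 80 and 160 mg/kg/day, and list members. Of 106 names in the region 55 genes were matched to symbols, 4 of them through the description column, and 50 names stayed cDNA accessions. No mm8 annotation was used, so exons and introns are not given. Resistant tumours were grouped by status, treatment and dose. Expression of these genes, measured on 21 RNA arrays, was not analysed here, because the tables used pair no probe set with a gene, so the test planned for it was not made. The number of arrays limits the precision, and SDs over probes are not errors between tumours.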

Additional observations from a re-analysis of the deposited data

How the results depend on the processing

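No paired analysis was possible because the resistant DNA tumours carry no replicate number that pairs them with vehicle tumours and the test on RNA was not made. The RNA alternatives and the correction for GC content of the probes were not run, since probe-set names and probe sequences were not used here. The penalty of 1 time, taking the vehicle mean off each probe (below, without the vehicle mean) and counting the cDNA similar to GLI2 with Gli2 were chosen after seeing the data. Of 219 alternative values 165 stayed within a set tolerance and 54 moved. For levels the tolerance was the SD of the vehicle tumours, and for borders 50 kb. For shares it was the 95% binomial interval over probes or windows, taken as independent, which is wide for 26 windows. For segment counts it was a fixed factor. A change of sign was looked for only in levels of at least 0.3 in size, and 0 were found. Centring on all probes moved no value. The authors' deposited table and leaving out saturated or dim spots also moved none, with 23 values each. These settings could hardly move a value, so their values say little about robustness. The deposited ratios nearly equal those used, and no spot of the region was saturated or dim.

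From Tfcp2l1 to Inhbb, the excess over vehicle at 80 and 160 mg/kg/day was 1.70 and 1.28 with normexp and 2.12 and 1.21 as a median over probes. For Gli2 it was 1.84 and 1.42 with normexp. Centring on the mode gave 0.16 at 40 and 1.17 at 160 mg/kg/day. The mean of the 3 resistant tumours, 1.13, was 1.03 with normexp and 1.17 with the mode, and ranged from 0.61 to 1.64 without 1 tumour, with 0.61 without the 80 mg/kg/day tumour. The segment with Gli2 at 40 mg/kg/day, at -0.02 and not called, lay above 0 under several alternatives: it was at 0.12 with normexp (3 segments), 0.040 with the mode, 0.16 with penalties of 2 times (3 segments) and 1 time (4 segments), and 0.071 without the vehicle mean. At 80 mg/kg/day it was at 2.83 with normexp, 2.35 with penalties of 2 times and 1 time, 2.05 with 5 times and 2.28 without the vehicle mean. There normexp, which lowered the spread of neighbouring probes of that array to 0.097, gave 124 segments and a block from 120.734 Mb, inside Gli2, to 121.243 Mb. No segment spanned all Gli2 probes there, so 2.83 is that of the segment at the middle of the gene. The block ended at 122.8 Mb with penalties of 2 times and 1 time, with 20 segments at 1 time, and 15 segments were found without the vehicle mean. At 160 mg/kg/day the segment with Gli2 was at 1.35 from 120.5 to 121.3 Mb with normexp (8 segments), at 0.94 with the mode, at 0.75 from 113.0 to 122.4 Mb with 2 times, at 1.26 from 120.6 to 121.3 Mb with 1 time (10 segments), and from 113.0 to 121.6 Mb without the vehicle mean. The share of probes in gains at 80 mg/kg/day was 13.2% with normexp, 95.2% with calls at 0.2, 50.9% at 0.5 and 75.8% with a penalty of 1 time. At 160 mg/kg/day it was 82.7% with 5 times and 72.3% with calls at 0.5. The share of windows at 80 mg/kg/day was 23.1% with normexp and 53.8% at a threshold of 0.5, against 80.8%.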
